A study of Mus musculus with 18 samples.

Results

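The genes described here are the 2 corticoid receptors, Nr3c2 and Nr3c1, and 4 genes of the corticoid response, Fkbp5, Tsc22d3, Per1 and Sgk1. They were found by symbol in both deposited tables of read counts, 6 of 25965 entries, and all 6 passed the filter on low counts in both sexes. They were picked with the differences between genotypes in these data already known, so their genotype values are given as a description, without a test. The 18 libraries were polyA RNA sequencing of cells sorted from femoral bone marrow as CD45.2+ B220+ Mac1-, a gate for B cells, from C57BL/6 mice aged 12 to 16 months. All animals carried Vav.Cre[T/+], a Cre transgene active in blood-forming cells. Controls were Smchd1[del/+] animals, called heterozygous here, with 5 female and 4 male libraries, and Smchd1[del/del] animals, called del/del, gave 5 female and 4 male libraries. There were no libraries with intact Smchd1, a gene for a chromatin protein that keeps other genes silent.

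Corticoid receptors are nuclear receptors that, without a ligand, lie largely in the cytoplasm in a complex with heat shock proteins and move to the nucleus when a steroid binds. Nr3c1 encodes the glucocorticoid receptor and Nr3c2 the mineralocorticoid receptor, which binds glucocorticoids as well as aldosterone and is best known for salt balance in the kidney. In developing B cells, glucocorticoids are known to cause cell death and to restrain growth, and Tsc22d3 (GILZ), Fkbp5, Per1 and Sgk1 are widely used as readouts of receptor activity.

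Total counts lay between 9788112 and 29405395 per library. Smchd1 was lower in every del/del library than in every heterozygous library of its sex, at 128 to 171.2 against 231 to 269.8 CPM (reads scaled for library size with TMM factors) in females and at 163 to 199 against 277 to 328 CPM in males. The 8 B cell markers were abundant in all libraries, with a summed level of 6384 to 8694 CPM. Markers of other cells were present too. Summed plasmacytoid dendritic cell markers (14 genes with a count entry) reached 4195 to 5673 CPM in females and 3247 to 4090 CPM in males. In female controls the highest means in this sum were those of Spib, Atp1b1, Irf8 and Ly6d, at 1759, 884, 704 and 626 CPM. Siglech was at 240 CPM and Ccr9 at 64.4 CPM in the same libraries. Whether B cells or dendritic cells gave this RNA cannot be told from the sum. Neutrophil and monocyte markers reached 1010.2 to 5957 CPM, T and NK cell markers 113 to 226 CPM and erythroid markers 95.8 to 1067 CPM over all libraries. In sorted bulk RNA, fewer cells of a type and less RNA per cell cannot be told apart.

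Promoter windows from RefSeq (build GRCm38.p6, 250 bases before a transcription start) were found for 5 of the 6 genes, 13 windows in all. The 3 windows that hold the whole palindrome or an E-box, both given next, are shown. The searched letters were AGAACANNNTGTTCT, the palindrome to which corticoid receptors bind, its hexamer AGAACA, and the E-box CACGTG, which clock proteins bind, each on both strands. Capitals mark these letters. The sequences run 5′ to 3′ on the gene's strand.
Sgk1, chr10:21993640-21993889, plus strand: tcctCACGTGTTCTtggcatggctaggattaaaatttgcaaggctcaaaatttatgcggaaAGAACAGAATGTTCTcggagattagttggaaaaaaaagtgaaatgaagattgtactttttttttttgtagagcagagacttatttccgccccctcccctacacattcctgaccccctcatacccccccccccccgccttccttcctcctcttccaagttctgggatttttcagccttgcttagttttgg
Per1, chr11:69098699-69098947, plus strand: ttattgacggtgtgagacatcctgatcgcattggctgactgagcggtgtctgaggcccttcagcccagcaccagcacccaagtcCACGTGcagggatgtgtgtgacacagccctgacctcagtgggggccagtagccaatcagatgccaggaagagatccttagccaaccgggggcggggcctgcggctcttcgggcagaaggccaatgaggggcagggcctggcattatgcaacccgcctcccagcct
Fkbp5, chr17:28486150-28486399, minus strand: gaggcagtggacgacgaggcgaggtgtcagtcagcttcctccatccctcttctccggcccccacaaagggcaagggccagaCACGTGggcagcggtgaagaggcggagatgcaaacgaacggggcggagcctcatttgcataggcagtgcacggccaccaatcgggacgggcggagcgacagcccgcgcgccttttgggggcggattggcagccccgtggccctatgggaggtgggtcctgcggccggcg
The Sgk1 window, at the fifth of 6 starts listed for the gene, held the whole palindrome at bases 62 to 76 of those shown. Only 3 of 32851 mouse promoter windows (0.00913%) held it. Its E-box, at bases 5 to 10, overlaps a further copy of the hexamer. The Per1 and Fkbp5 windows each held an E-box, at bases 85 to 90 and 82 to 87, as did 6.02% of windows over these 250 bases. The hexamer was in 16.1% of windows over the same bases and in 4 of the 13 windows of these genes, 3 of Sgk1 and 1 of Tsc22d3. A match is a description of letters and shows no binding.

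Nr3c2 lies on chromosome 8 from 76899442 to 77245012 on the plus strand (ENSMUSG00000031618, GRCm38). In females its level was 7.37, 5.44, 7.17, 8.43 and 6.70 CPM in the heterozygous libraries and 17.3, 6.72, 18.04, 10.54 and 23.5 CPM in the del/del libraries. In males it was 12.0, 14.01, 12.3 and 14.4 CPM in the heterozygous libraries and 27.9, 28.03, 33.3 and 37.1 CPM in the del/del libraries. All 4 male del/del libraries were above every male control, and 4 of 5 female del/del libraries were above every female control. The exception, female del/del library 2, lay inside the control range. Means were 7.02 ± 1.09 (SD, n = 5) and 15.2 ± 6.62 CPM (SD, n = 5) in females, and 13.2 ± 1.21 (SD, n = 4) and 31.6 ± 4.45 CPM (SD, n = 4) in males. The log2 fold change, del/del against heterozygous, was 1.10 (SE 0.28) in females and 1.27 (SE 0.12) in males, close to 1.12 and 1.27 in the authors' deposited table. Between 64 and 751 reads per library stood behind these values.

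Of the 6 genes, only Nr3c2 passed the threshold (adjusted p under 0.05, edgeR quasi-likelihood test over all genes), in males, where 0.119% of 13413 genes tested did so. In females none of the 6 passed, against 0.252% of 13501 genes. Male groups that did not overlap, with del/del above, occurred in 1.27% of genes, and female ones in 0.837%. These shares stand beside the count as background, and since the genes were picked on this contrast nothing is read from it. Nr3c2 passed in females in 3 of 9 alternative settings, among them DESeq2 and the fit of all 18 libraries. Of the 10 fits that left out 1 library it passed in 1, without female del/del library 2 (log2 1.30). In males it did not pass in the fit of all 18 libraries, at a log2 fold change of 1.26 (SE 0.26). The difference of the female and male fold changes was -0.15 on the log2 scale (SE 0.35), smaller than its error.

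**Figure D1:**
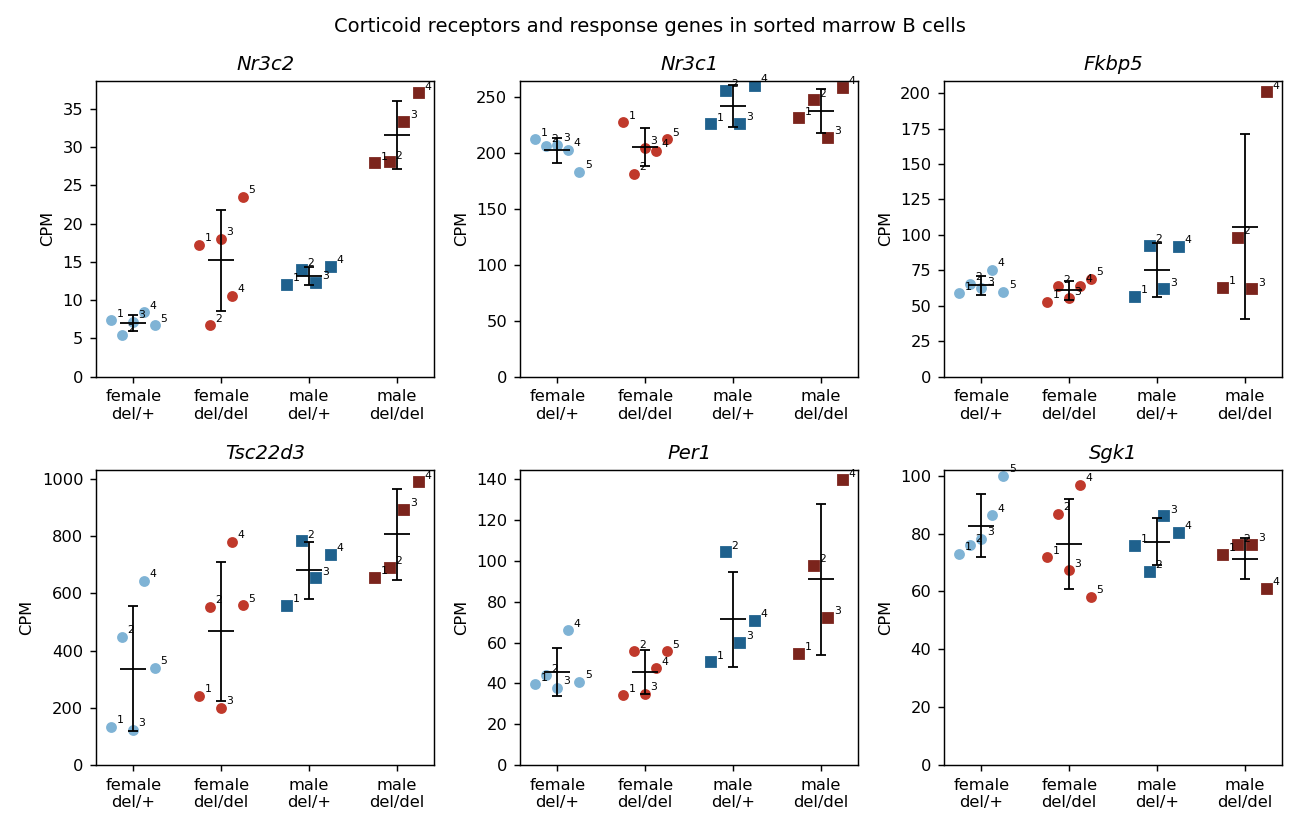
Level in CPM (vertical axes, each from 0) of the 6 genes in each of the 18 libraries, numbered within their group, with mean and SD of the group as bars. Nr3c2 is higher in del/del libraries of both sexes except female library 2, while the groups of the other 5 genes overlap in both sexes.

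Among female del/del animals Nr3c2 ranged from 6.72 to 23.5 CPM, in the same order as the level of a mature B cell list added later, described below. The 5 genes that varied most like Nr3c2 between libraries of the same group, of 8850 searched, were Kbtbd11 (Pearson r = 0.977 over 18 libraries), Fcgrt, Bcl2, Gpr174 and Cyp4v3 (0.951 to 0.960). Bcl2 is a survival factor, Fcgrt is the neonatal Fc receptor subunit, and Gpr174 is a lysophospholipid receptor of lymphocytes. The points share libraries and depth, and the genes were ranked by this value, so it is a description. For Kbtbd11 r was 0.988 in females and 0.955 in males. For Gpr174 it was 0.981 in females and 0.480 in males.

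Kbtbd11 itself differed little between genotypes, with log2 fold changes of 0.24 (SE 0.27) in females and 0.12 (SE 0.16) in males. Its level was 72.1, 54.1, 60.4, 83.7 and 62.6 CPM in female heterozygous libraries and 92.7, 35.1, 95.7, 49.6 and 122 CPM in female del/del libraries. Nr3c2 amounted to 9.16% to 11.9% of the Kbtbd11 level in the 9 heterozygous libraries of both sexes and to 18.6% to 24.5% in the 9 del/del libraries. Every del/del library was therefore above every heterozygous one on this ratio, including female library 2 at 19.2%. Of 13174 genes tested in both sexes, 0.0683% separated all 9 del/del libraries in this way relative to Kbtbd11, and 0.121% did so by CPM alone, where Nr3c2 did not. Kbtbd11 was chosen for its likeness to Nr3c2 and Nr3c2 for its genotype difference, so the ratio is a description and these shares are no test of it. Relative to Fcgrt, Bcl2, Gpr174 and Cyp4v3, Nr3c2 also had no overlap between genotypes. On the ratio to Bcl2, for example, the heterozygous libraries lay at 10.54% to 14.2% and the del/del libraries at 20.2% to 30.1%. These genes too were chosen for their likeness to Nr3c2. The share of all genes that separate on these ratios was not counted, so nothing is read from them.

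**Figure D2:**
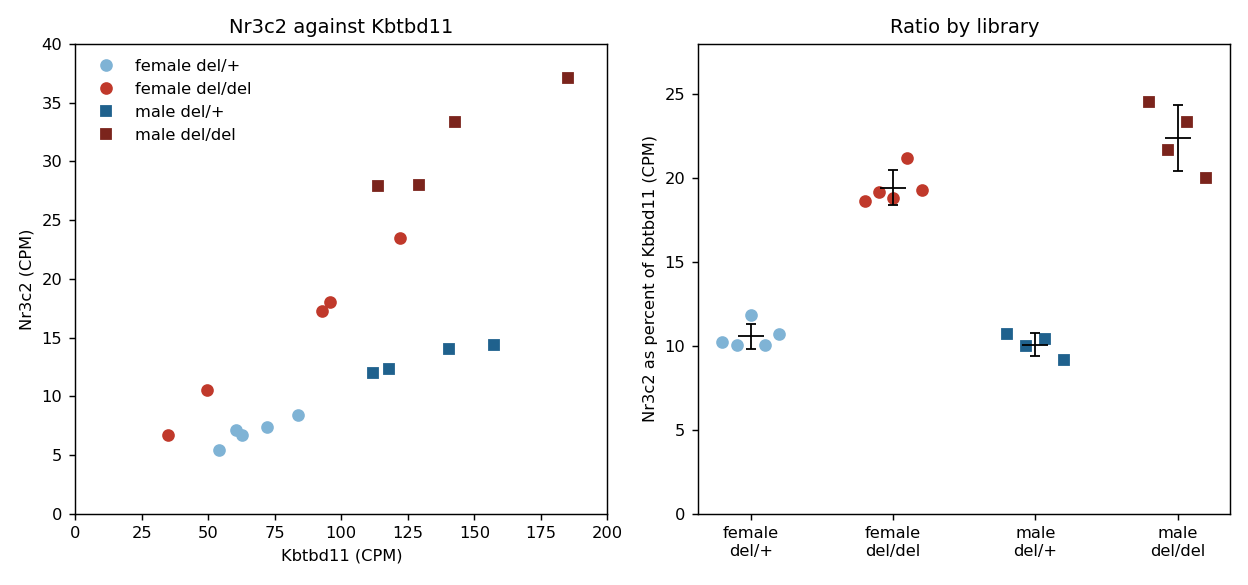
Left, Nr3c2 against Kbtbd11, both in CPM, with a point for each of the 18 libraries; right, Nr3c2 as a percent of Kbtbd11 by group, with mean and SD as bars. Heterozygous libraries of both sexes lie at 9.16% to 11.9% and del/del libraries at 18.6% to 24.5%, with no overlap.

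A list of 11 mature B cell genes, among them Ccr7, Cr2 and Fcer2a, was added after these values were seen. Its level, the mean log2 CPM, was 6.74, 5.73, 6.84, 6.17 and 7.37 in the female del/del libraries, in the same order as Nr3c2. In female heterozygous libraries it was 6.10 to 6.80 and in males 7.47 to 7.79. With this level as a covariate, the log2 fold change of Nr3c2 was 0.94 (SE 0.12) in females and 1.26 (SE 0.13) in males, values given as a description. Within groups, Nr3c2 correlated with this level at r = 0.919, from 0.971 in females to 0.111 in males, where the level hardly varied. Against cell cycle genes, also added later, r was -0.765. Against pro-B and pre-B cell genes, added later too, it was -0.65, at -0.69 in females and -0.77 in males. Dendritic cell markers had positive fold changes for 13 of 14 genes in females and 11 of 14 in males, with medians of 0.33 and 0.40, and none passed the threshold in edgeR (1 in females and 2 in males in DESeq2). Of these markers, 2 in females and 7 in males had an unadjusted p under 0.05 in edgeR. Over all genes tested, 421 higher and 159 lower values of 13501 did so in females, and 311 and 137 of 13413 in males. The level of the dendritic cell markers was at a mean log2 CPM of 7.29, 6.74, 7.37, 6.42 and 7.50 in the female del/del libraries. Within groups its correlation with Nr3c2 was r = 0.523 (rho = 0.418, permutation p = 0.172, adjusted 0.453), at 0.683 in females and -0.632 in males. With the dendritic level as a covariate the log2 fold change was 0.76 (SE 0.23) in females and 1.40 (SE 0.13) in males. Other marker lists had a larger r with Nr3c2, none past the threshold. These were plasma cell (-0.667, permutation p = 0.0202, adjusted 0.1996), T and NK cell (0.658, permutation p = 0.0131, adjusted 0.196) and neutrophil and monocyte markers (0.582, permutation p = 0.0801, adjusted 0.328). For B cell, erythroid, and stroma and endothelium markers r was smaller, at -0.0486, 0.0967 and 0.387.

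Of the 7 other entries within 500 kb of Nr3c2, Arhgap10, Prmt10 and Tmem184c were the only ones above 1 CPM in a group mean, and their means differed between genotypes of a sex by less than the larger SD of the groups. Arhgap10, the next gene after Nr3c2, was at 12.1 ± 1.89 and 11.4 ± 1.89 CPM (SD, n = 5) in the female groups, controls first, and at 9.66 ± 1.52 and 8.51 ± 1.01 CPM (SD, n = 4) in males. Prmt10 stayed between group means of 37.2 and 40.7 CPM and Tmem184c between 46.5 and 55.0 CPM. Gm10649, on the other strand across the start of Nr3c2, was at most 0.420 CPM in any library. Its means were higher in del/del libraries, at 0.0276 ± 0.0453 against 0.140 ± 0.148 CPM in females (SD, n = 5) and 0.0670 ± 0.0784 against 0.267 ± 0.112 CPM in males (SD, n = 4). The sources used here do not say whether counting used strand, so its reads and those of Nr3c2 cannot be told apart where they overlap. Ednra, the endothelin receptor gene, was at most 0.666 CPM, and 1700092C02Rik had no reads in any library.

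Nr3c1 lies on chromosome 18 from 39410545 to 39491301 on the minus strand (ENSMUSG00000024431). It was 211.8, 206, 207, 202.4 and 183 CPM in female heterozygous libraries and 227, 181, 204, 201 and 212.02 CPM in female del/del libraries. In males it was 225, 255, 226 and 259 CPM against 230.5, 247, 213.3 and 258 CPM. The groups overlapped in both sexes, and the log2 fold changes were 0.02 (SE 0.08) and -0.02 (SE 0.08). Per kilobase of exon, with exons taken from GENCODE M21, the glucocorticoid receptor gene was the more abundant of the pair. The M21 gene ends at 39519421, beyond the counted entry, so the exon length of Nr3c1 may include exons that were not counted. The ratio of Nr3c1 to Nr3c2 per kilobase was 24.7 ± 4.35 (SD, n = 5) in female controls, 13.4 ± 6.08 (SD, n = 5) in female del/del libraries, 15.5 ± 0.284 (SD, n = 4) in male controls and 6.41 ± 0.939 (SD, n = 4) in male del/del libraries. In males the ratio was 15.2 to 15.8 in every control and 5.39 to 7.41 in every del/del library. In females it was 20.2 to 31.9 and 7.60 to 22.7, and the groups overlapped through library 2. Nr3c1 differed little between genotypes, so the ratio largely restates the Nr3c2 difference that was known when the genes were picked. The share of all genes whose ratio to Nr3c2 separates the groups was not counted, so the ratio is a description.

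Fkbp5 encodes a co-chaperone that lowers the affinity of the glucocorticoid receptor for its ligand, and it is itself induced by that receptor (chromosome 17, 28399095 to 28517524, minus strand, ENSMUSG00000024222). It was 58.9, 65.3, 62.3, 75.6 and 59.8 CPM in female controls and 52.7, 63.8, 55.2, 64.1 and 69.0 CPM in female del/del libraries. In males it was 56.5, 92.2, 61.5 and 91.6 CPM in controls and 62.7, 98.2, 61.6 and 200.5 CPM in del/del libraries. Male del/del library 4 stood apart from the others. The log2 fold change was -0.08 (SE 0.10) in females and 0.49 (SE 0.36) in males, and the male value was -0.02 (SE 0.22) without male del/del library 4. In that library the dendritic cell level was the lowest of all 18, at a mean log2 CPM of 5.85, and with that level as a covariate the male value was 1.07 (SE 0.19). Its part in the value was not tested.

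Tsc22d3 encodes GILZ, a mediator of the anti-inflammatory action of glucocorticoids (chromosome X, 140539528 to 140600659, minus strand, ENSMUSG00000031431). It varied more between animals of a group than any of the other 5 genes did in female controls, with 134, 448, 125, 643 and 339.9 CPM. Female del/del libraries held 242.9, 554, 201.6, 780.3 and 558 CPM. Male libraries held 556, 781, 652 and 735 CPM in controls and 655, 689.9, 891 and 988 CPM in del/del animals. The highest level in female controls was 5.15 times the lowest, against 1.41 times in male controls. The groups overlapped in both sexes, and the log2 fold changes, 0.46 (SE 0.47) and 0.25 (SE 0.15), did not pass the threshold. Within pairs of nearest animal number, which the labels do not state, the del/del library was the higher in each of the 5 female pairs. In males del/del library 2 was below its paired control 2, at 689.9 against 781 CPM. The share of all genes with such pairs was not counted, so nothing is read from this. With these pairs as a block the female value was 0.56 (SE 0.10, adjusted p = 0.110 in edgeR). All 11 erythroid markers had negative log2 fold changes in each sex, with medians of -0.81 in females and -0.80 in males, and none passed the threshold. At an unadjusted p under 0.05 in edgeR there were 9 of the 11 in females and 1 in males. Over all genes tested, 159 of 13501 in females and 137 of 13413 in males were lower at that p. Among female controls Tsc22d3 was highest in libraries 2 and 4, where the erythroid markers were highest too, at a mean log2 CPM of 4.07 and 4.18. With the erythroid level as a covariate the female value of Tsc22d3 was 1.63 (SE 0.43), short of the threshold.

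Per1 is a clock gene with a rapid response to glucocorticoids (chromosome 11, 69095217 to 69109960, plus strand, ENSMUSG00000020893). It was 39.7, 43.9, 37.8, 65.9 and 40.7 CPM in female controls and 34.2, 55.6, 34.9, 47.4 and 55.7 CPM in female del/del libraries. In males it was 50.4, 104, 59.99 and 70.6 CPM against 54.6, 97.3, 72.2 and 139 CPM. The groups overlapped in both sexes, at log2 fold changes of -0.01 (SE 0.18) and 0.35 (SE 0.29). The male value was 0.07 without male del/del library 4, the library that was also highest in Fkbp5.

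Sgk1 encodes a kinase that raises sodium channel activity in kidney and is induced by both receptors (chromosome 10, 21882184 to 21999903, plus strand, ENSMUSG00000019970). It was 73.0, 75.9, 78.1, 86.3 and 99.9 CPM in female controls and 71.9, 86.9, 67.3, 96.9 and 58.2 CPM in female del/del libraries. In males it was 75.7, 66.9, 86.0 and 80.2 CPM against 72.6, 76.0, 76.0 and 60.9 CPM. Its group means were 71.4 to 82.7 CPM, and its log2 fold changes were -0.12 (SE 0.14) and -0.10 (SE 0.10). The highest Sgk1 levels were not in the libraries with the highest Nr3c2: female del/del library 5 had the most Nr3c2 of its group and the least Sgk1, and so did male del/del library 4. In controls this opposition was not seen. There library 4 had the most Nr3c2 in each sex, with Sgk1 at 86.3 CPM in females and 80.2 CPM in males. Only female control 5 and male control 3 had more Sgk1 in their groups.

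Per kilobase of exon, the order of the 6 genes by mean was the same in all 4 groups, except that Per1 came before Sgk1 in male del/del libraries, where they overlapped. In female controls Tsc22d3 came first at 77.9 ± 50.5, followed by Nr3c1 at 26.3 ± 1.47, Sgk1 at 16.9 ± 2.21, Per1 at 8.10 ± 2.06, Fkbp5 at 6.80 ± 0.712 and Nr3c2 at 1.08 ± 0.168 CPM per kilobase (SD, n = 5 each). Per1 and Fkbp5 overlapped in each of the 4 groups, so their order was not resolved. Sgk1 and Per1 did not overlap in either female group and did in both male groups. Nr3c2 was the lowest in every group, reaching at most 5.73 CPM per kilobase in male del/del libraries, where Fkbp5 started at 6.51.

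The question of whether these genes vary together between animals of the same group does not use the genotype difference and was tested. Correlations were computed over the 18 libraries on log2 CPM with the mean of each group removed, with permutation tests within groups (two-sided, 100000 permutations) and Benjamini-Hochberg adjustment over the 15 pairs. Fkbp5 and Per1 rose and fell together: Pearson r was 0.846 (permutation p = 3e-05, adjusted 0.00045) and Spearman's rho 0.915 (permutation p = 9e-05). The relation held in each table, at r = 0.947 in females and 0.898 in males, without the 2 libraries farthest from the median (r = 0.831), and with dendritic and erythroid marker levels removed (r = 0.794). Per1 ranked 16th of 8850 genes in likeness to Fkbp5, and Fkbp5 ranked 8th in likeness to Per1.

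Tsc22d3 and Per1 had r = 0.610 (permutation p = 0.00057, adjusted 0.00427) and rho = 0.693 (permutation p = 0.00019), with r = 0.815 in females, 0.747 in males and 0.654 without the 2 farthest libraries. Fkbp5 and Tsc22d3 had r = 0.352 (permutation p = 0.00286, adjusted 0.0143) and rho = 0.562 (permutation p = 0.00107), with r = 0.791 in females, 0.654 in males and 0.538 without the 2 farthest libraries. Both relations were lost when dendritic and erythroid marker levels were removed, at r = 0.354 and 0.0507. The 3 pairs past the threshold are thus those among Fkbp5, Tsc22d3 and Per1, and only that of Fkbp5 and Per1 remained with the marker levels removed.

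**Figure D3:**
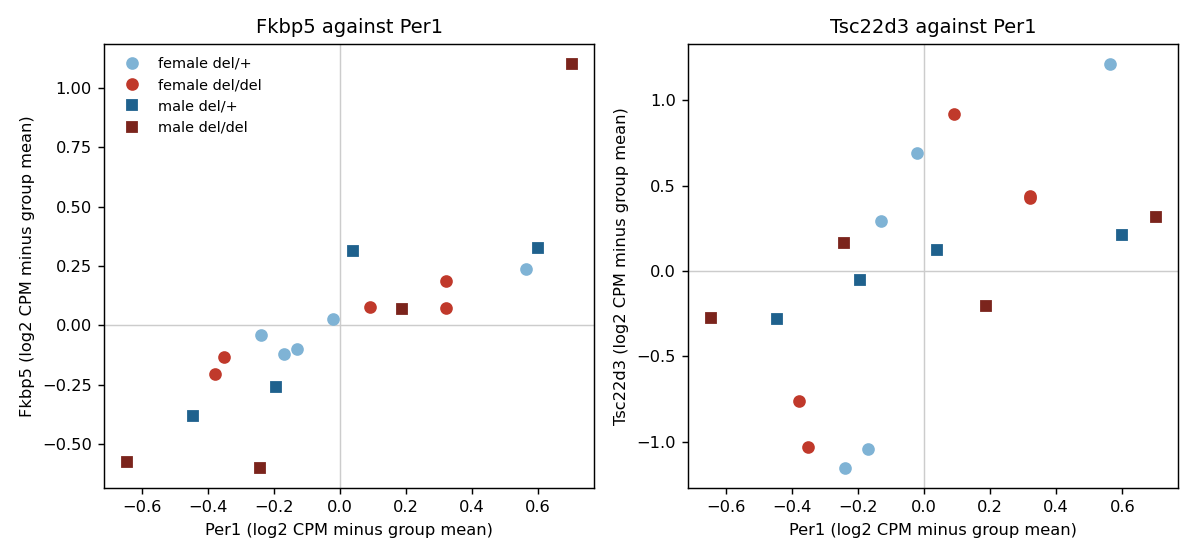
Fkbp5 (left) and Tsc22d3 (right) against Per1, each as log2 CPM minus the mean of the library's group, with a point for each of the 18 libraries. The left points lie along a rising line (r = 0.846), and the right ones scatter more widely (r = 0.610).

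Sgk1 did not join these 3 genes. Its r was -0.301 with Fkbp5, 0.328 with Tsc22d3 and -0.167 with Per1, none past the threshold. With the receptors it was lower where they were higher: with Nr3c1 r was -0.608 (permutation p = 0.0171, adjusted 0.0639) and with Nr3c2 -0.641 (permutation p = 0.0454, adjusted 0.0974), both short of the threshold after adjustment. By rank, the relation with Nr3c1 passed (rho = -0.643, permutation p = 0.0116, adjusted 0.0435). Nr3c2 and Nr3c1 had r = 0.538 (permutation p = 0.0374, adjusted 0.0974). Neither receptor correlated with Fkbp5, Tsc22d3 or Per1 past the threshold over the 18 libraries. The closest was Nr3c1 with Fkbp5, at r = 0.541 (permutation p = 0.0405, adjusted 0.0974), from -0.226 in females to 0.873 in males. Of the 15 pairs, 7 had an unadjusted p under 0.05.

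**Figure D4:**
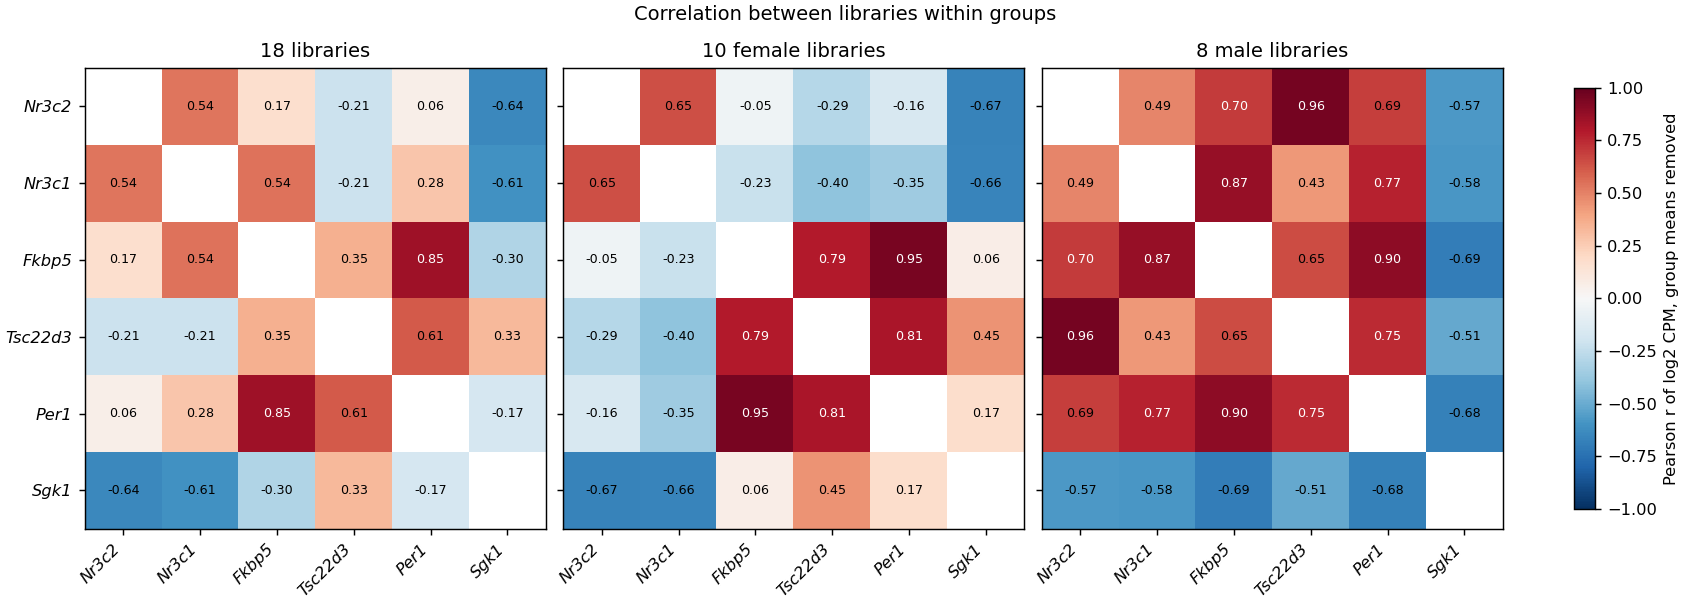
Pearson r of each pair of genes on log2 CPM with group means removed, over 18 libraries, 10 female libraries and 8 male libraries, on a colour scale from -1 to 1. Fkbp5, Tsc22d3 and Per1 are positive with each other in all 3 panels, and Sgk1 is negative with both receptors in all 3.

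The genes most like each response gene were found in the same way, as a description over 18 libraries. For Fkbp5 they were Klraq1 (r = 0.965), Pdcd4, Sesn1, Pik3ip1 and Inpp5d, and for Per1 they were Egln2 (r = 0.947), Pik3ip1, Zfp1, Il10ra and Ndrg1. Sesn1 and Pik3ip1, inhibitors of mTOR and PI3K signalling, are on the fixed list of glucocorticoid-induced genes, and Ndrg1, whose product SGK1 phosphorylates, is on the list of the SGK pathway. For Tsc22d3 they were Zfp36l2 (r = 0.957), Sik1, Ninj1, Nudt9 and Ptplb. For Nr3c1 they were Tgoln1 (r = 0.938), Usp9x, Cd86, Cyld and Ahctf1, and for Sgk1 Csnk2a2 (r = 0.873), Tlk2, Ssbp2, Dusp6 and Chchd7. The likeness to Fkbp5 was weaker among females, from r = 0.338 for Pdcd4 to 0.752 for Pik3ip1, than among males, from 0.959 to 0.993, where del/del library 4 had by far the most Fkbp5.

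Each gene was also set against the levels of 15 gene lists, 90 pairs in all. None passed after adjustment, and 15 had an unadjusted p under 0.05. The smallest p was that of Nr3c2 with the genes of steroid handling (r = 0.699, rho = 0.686, permutation p = 0.00072, adjusted 0.0648). Tsc22d3 followed the other glucocorticoid-induced genes at r = 0.777 (permutation p = 0.00359, adjusted 0.116) and the erythroid markers at r = 0.571 (permutation p = 0.00386, adjusted 0.116). Without the 2 farthest libraries these were 0.547 and 0.386.

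The rest of the pathway was examined in the comparison of genotypes with lists of 8 kinds. Of the 26 listed glucocorticoid-induced genes, 23 passed the filter in females and 24 in males, and none passed the threshold in either sex with edgeR or DESeq2, while 1 in females and 3 in males had an unadjusted p under 0.05. In females 12 of 23 were higher in del/del libraries with a median log2 fold change of 0.01, and in males 19 of 24 were, with a median of 0.22, beside medians of -0.0044 and 0.0013 over all genes tested. The male values with the smallest p were those of Dusp1, a MAP kinase phosphatase, at 1.10 (SE 0.35), Errfi1, an inhibitor of EGF receptor signalling, at 0.60 (SE 0.22), and Nfkbia, the inhibitor of NF-kB, at 0.15 (SE 0.06), each with an adjusted p near 1 in edgeR. In females Tgm2 at -0.77 (SE 0.29) and Errfi1 at 0.66 (SE 0.33) were among the first 3. Immediate early genes, which rise within minutes of cell handling or stimulation, were positive for 15 of 16 genes in each sex, with medians of 0.18 in females and 0.32 in males and none past the threshold. Their summed level was 1492 to 2676 CPM in females and 1826 to 3333 CPM in males, and its part in the male values above was not tested.

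None of the 12 receptor chaperones, 13 coregulators, 7 tested genes of steroid handling, 11 tested genes of the mineralocorticoid and SGK pathway or 15 tested clock genes passed in either sex with edgeR or DESeq2, with median log2 fold changes between -0.08 and 0.14. Of these 58 genes, 1 in females and 2 in males had an unadjusted p under 0.05. Hsd11b1, which regenerates active glucocorticoid, was at 10.7 ± 2.12 CPM in female controls and 15.6 ± 6.92 CPM with both alleles deleted (SD, n = 5), a log2 fold change of 0.54 (SE 0.29). Scnn1a, a subunit of the epithelial sodium channel, was at about the detection limit of the filter, with group means of 0.975 to 1.34 CPM. Among the other receptors of the same family, Esrrg, the estrogen-related receptor gamma, rose in females from 0.0751 ± 0.103 to 2.99 ± 1.36 CPM (SD, n = 5), which is 4.92 on the log2 scale (SE 0.64, adjusted p = 0.00322 in edgeR). Male controls held 0.343 ± 0.345 CPM and male del/del libraries 0.896 ± 0.285 CPM (SD, n = 4), and this log2 difference of 1.22 (SE 0.58) fell short of the threshold. The difference of the sexes for Esrrg was 3.69 on the log2 scale (SE 0.98) and did not pass in edgeR (adjusted p = 0.99994). No gene of 14017 passed that test of a difference between the sexes, 150 higher and 53 lower values had an unadjusted p under 0.05, and DESeq2 called 4.

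**Figure D5:**
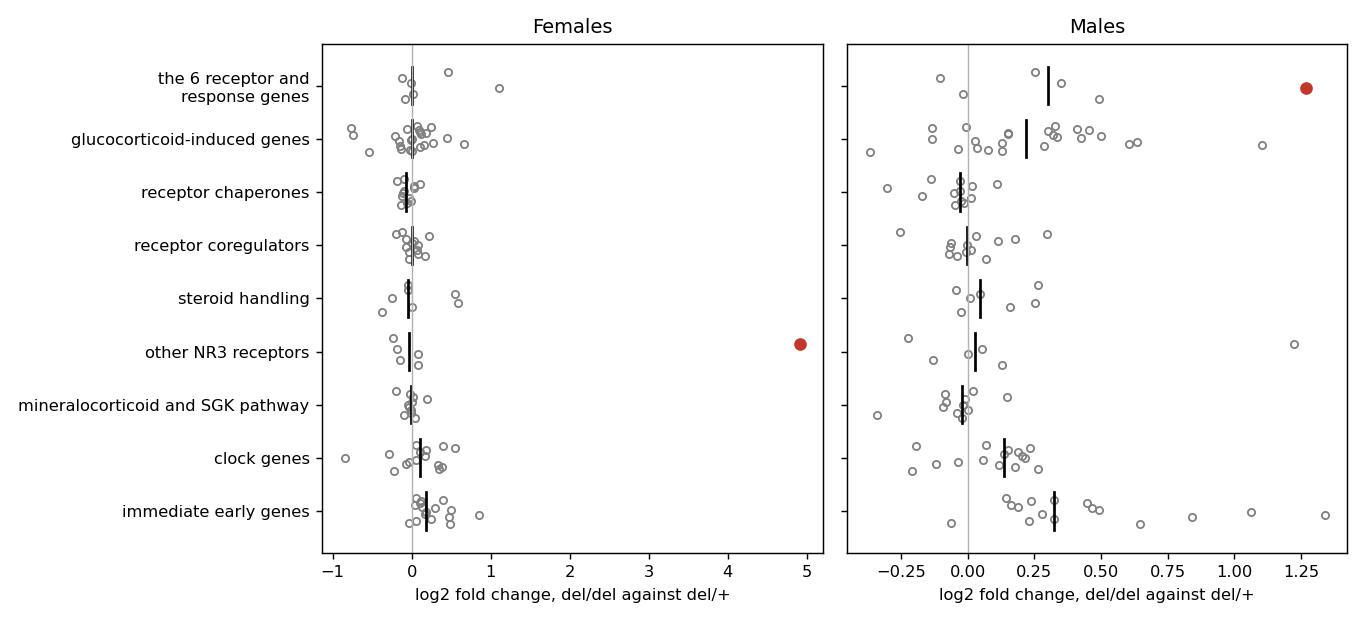
Log2 fold change of del/del against heterozygous libraries for the 6 genes and 8 lists, females left and males right on axes of different length; each point is a gene, filled red where it passed the threshold, and black bars are list medians. Only Nr3c2 in males and Esrrg in females are filled, and the medians of the lists lie between -0.08 and 0.32.

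Levels were also compared between the sexes, a contrast the choice of these genes did not use. It sets the mean of the 2 female groups against that of the 2 male groups, and since the sexes were deposited as separate tables, sex and table cannot be told apart. In it 41.9% of 14017 genes passed, 20.7% as lower in females. Of the 6 genes, 5 were lower in females (edgeR quasi-likelihood test, adjusted over all genes). Nr3c2 had a log2 difference of -0.98 (SE 0.17, adjusted p = 0.00022), Tsc22d3 of -0.90 (SE 0.29, adjusted p = 0.0201), Per1 of -0.82 (SE 0.18, adjusted p = 0.00127), Fkbp5 of -0.51 (SE 0.18, adjusted p = 0.0306) and Nr3c1 of -0.23 (SE 0.05, adjusted p = 0.00233). Sgk1 was at 0.10 (SE 0.09, adjusted p = 0.422).

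The sexes also differed in marker RNA. Female libraries had more RNA of dendritic cell markers (11 of 14 passed as higher, median log2 difference 0.77), and the mature B cell level was at most 7.37 in females and at least 7.47 in males. All 11 erythroid markers had negative differences, with a median of -0.42, and 3 passed as lower in females. With the mature B cell level as a covariate, the Nr3c2 difference was 0.06 (SE 0.16, adjusted p = 0.881 in edgeR), and none of the 6 genes passed. Since this level did not overlap between the sexes, the fit cannot tell the 2 apart. The list was also added after the values were seen, so the result is a description. With the dendritic level as a covariate Nr3c2 (-1.53) and Nr3c1 still passed, while Fkbp5 (0.03), Tsc22d3 (-0.28) and Per1 (-0.39) did not. Nr3c2 and Per1 passed within the heterozygous and within the del/del libraries alone. Fkbp5 and Tsc22d3 passed in neither, and Nr3c1 did not in del/del libraries (-0.20, adjusted p = 0.130 in edgeR). Over the 8 alternatives other than leaving out 1 library, Fkbp5 and Tsc22d3 each passed in 3. Nr3c1 and Per1 each passed in 6 and Nr3c2 in 7. Fkbp5 also failed without female del/del library 1 (-0.48), male control 2 (-0.45), male control 4 (-0.46) or male del/del library 4 (-0.26).

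The other genes of the pathway are set beside the 41.9% of all genes that differed between the sexes, 20.7% as lower in females. Of 25 glucocorticoid-induced genes, 4 were higher in females and 7 lower, a share near that over all genes, with a median log2 difference of -0.18. Those lower included Hif3a (-1.97), Errfi1 (-1.17), Sesn1 (-0.91) and Per2 (-0.76), and those higher included Il7r (0.80), the receptor subunit for the growth factor of early B cells, and the metal-binding Mt1 (0.78). Of 15 clock genes, 6 were lower and 3 higher in females, a larger share than over all genes that was not tested. Nr1d2 (-0.90), Per3 (-0.98), Per2, Clock (-0.55), Cry2 (-0.44) and the output gene Tef (-0.34) were lower, as was Per1, while Arntl, the BMAL1 activator, was higher (0.81), with Bhlhe41 (0.80) and Cry1 (0.16). The sources used here give no hour of collection. Of 16 immediate early genes, 5 were lower in females, namely Fos (-1.24), Ier2 (-0.85), Zfp36 (-0.59), Klf6 (-0.53) and Klf2 (-0.43), and none was higher. Counted in either direction this is a smaller share than the 41.9% over all genes. Counted as lower alone it is a larger share than 20.7%, which was not tested. The progesterone receptor gene Pgr was at 5.71 ± 1.73 CPM in female controls (SD, n = 5) and 1.13 ± 0.315 CPM in male controls (SD, n = 4), a log2 difference of 2.33 over both genotypes (SE 0.31, adjusted p = 1.63e-05 in edgeR).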

How the data were processed

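RNA of sorted marrow B cells was sequenced in 18 libraries of separately numbered animals. Unnormalized counts of reads were deposited by gene, females and males apart. The submitters' processing notes name TopHat, Trim Galore, FastQC, bcl2fastq, edgeR 3.32.1 and the builds mm10 and GRCm38. How reads were counted, on which annotation and with what strand setting is not given in the sources used here. The authors' deposited tables also hold log2 fold changes, an F statistic (a score) and p-values, and the only values taken from them are the 2 log2 fold changes of Nr3c2. The 4 columns of group means (a signal averaged over libraries, per the file headers) were not used. The 56 entries without an identifier held at most 0.0846% of a library's counts and carried a symbol, so they stayed in the fits.

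Counts were tested in R 4.3.3 with the quasi-likelihood test of edgeR 4.0.16, with TMM factors and filterByExpr (minimum count 10, minimum total 15). Genotypes were compared within each sex, and the interaction and the sex comparison used all 18 libraries. A gene passed when its p adjusted by Benjamini and Hochberg's method was under 0.05. SEs of log2 fold changes were taken from the fold change and its F statistic (size over the root of F). CPM were scaled with TMM factors over 18 libraries, and correlations used log2 CPM with a prior count of 2. The fitting and calling steps were tested on simulated data. DESeq2 1.42.0, limma 3.58.1 voom, RLE factors, no filter, marker levels as covariates, pairs of nearest animal numbers and leaving out each library were the alternatives. Python 3 scripts did the correlations, and exon lengths came from GENCODE M21.

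The 6 genes and all lists were chosen with earlier results of these data known. The genes named are the 6, Smchd1, list genes that passed or else up to 3 of the smallest p, the 5 genes most like each of the 6 (mean log2 CPM of at least 3), and the entries within 500 kb of Nr3c2. Lists not described by gene are the plasma cell and the stroma and endothelium markers, whose summed levels were 444 to 1123 CPM and 275 to 333 CPM. The labels state no pairs. Deviations from group means correlated at 0.133 to 0.378 in all 4 male pairs of nearest animal number, over 0.1, and at -0.0276 to 0.347 in the 5 female pairs.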

Additional observations from a re-analysis of the deposited data

Results flagged for a closer look

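Among 24 sets of libraries examined (6 genes in 4 groups), 1 held a library far from the rest of its group. Per1 was at 65.9 CPM in female heterozygous library 4 and at 37.8 to 43.9 CPM in the other 4 female controls, a gap of 0.781 of the group's range against a critical value of 0.71. Chance gives about 1 such library in 20 groups. The same library was highest of its group in Nr3c2 (8.43 CPM), Fkbp5 (75.6 CPM) and Tsc22d3 (643 CPM).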

How the results depend on the processing

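Several alternatives moved the number of genes that passed between genotypes. It was 34 in females and became 92 with DESeq2, 58 in the fit of all 18 libraries, 17 with the erythroid level and 53 with the mature B cell level as a covariate, and 26 to 41 when 1 library was left out. It was 16 in males and became 49 with DESeq2, 5 with the dendritic level as a covariate and 5 to 22 when 1 library was left out. With the replicate block of nearest animal numbers the counts were 23 and 13, and this pairing changed no call among the 6 genes. The interaction count of 0 became 4 with DESeq2 (150 higher and 53 lower values had an unadjusted p under 0.05 in edgeR). In the sex comparison 5868 genes passed, 3533 in heterozygous libraries alone, 2314 in del/del libraries alone and 711 with the mature B cell level, under which Nr3c2 turned to 0.060 and Sgk1 to -0.22. With the dendritic level Fkbp5 turned to 0.028. List genes that passed went from 1 to 2 in females and from 0 to 2 in males with DESeq2. Of the 15 pairs of genes, 3 passed, 1 did with the dendritic and erythroid levels removed, and 3 to 5 did when 1 library was left out. The mature B cell list and its use as a covariate were chosen after seeing the data. The cause of these shifts was not tested. With 64 reads in female heterozygous library 2, its lowest count, Nr3c2 is the gene of the 6 most limited by depth.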

Other observations

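The relation of Nr3c2 to the response genes looked different in the 2 tables. Among the 8 male libraries, group means removed, Nr3c2 went with Tsc22d3 at r = 0.960, with Fkbp5 at 0.702 and with Per1 at 0.693. Among the 10 female libraries the same values were -0.286, -0.0456 and -0.160. Nr3c1 behaved alike, at 0.873 with Fkbp5 and 0.772 with Per1 in males and at -0.226 and -0.354 in females. The difference between the tables was not tested. In males, del/del library 4 was highest in Nr3c2, Fkbp5, Tsc22d3 and Per1 of its group.

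The nuclear RNA Malat1, examined after the values were seen, was lower where Per1 was higher, at r = -0.670 over 18 libraries (-0.546 in females and -0.759 in males). For Sgk1 the level of pro-B and pre-B cell genes, also listed later, gave r = 0.839 in females and -0.0591 in males.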
